A study of Mus musculus with 6 samples.

Results

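The dual-specificity MAPK phosphatases are enzymes that switch mitogen-activated protein kinases (MAPKs) off. The genes described here are the 10 mouse members Dusp1, Dusp2, Dusp4, Dusp5, Dusp6, Dusp7, Dusp8, Dusp9, Dusp10 and Dusp16. They were taken by name, with no threshold on their values, and all 10 were found by Ensembl ID among the 25528 genes of the count tables. The counts came from mouse gastric corpus organoids, epithelial structures of the stomach's body that are cultured in 3 dimensions. The 3 libraries of the group Erbb2_OE_Corpus came from organoids that overexpress Erbb2, a receptor tyrosine kinase, and the 3 libraries of the group Ctrl_Corpus from organoids transduced with an empty vector. The controls were thus transduced organoids and not untreated ones. The labels do not give the promoter or species of the Erbb2 construct, the mouse strain or age, or whether a group is 1 clone or line, so p-values measure the spread between libraries, which may be technical.

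MAPKs are activated when upstream kinases phosphorylate a threonine and a tyrosine in their activation loop. The MAPK phosphatases remove both phosphates, and each enzyme prefers certain MAPKs. Dusp1, Dusp2, Dusp4 and Dusp5 encode nuclear enzymes whose genes are induced by mitogens or stress, Dusp6, Dusp7 and Dusp9 encode cytoplasmic enzymes with a preference for ERK, and Dusp8, Dusp10 and Dusp16 encode enzymes that act mainly on JNK and p38. ERK lies downstream of ErbB receptors, and several of these phosphatase genes are themselves ERK targets, so that they are widely read as a negative feedback arm of the pathway.

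Erbb2 was at 125, 164 and 128 CPM (counts per 1000000 scaled counts) in empty-vector replicates 1, 2 and 3 and at 342, 349 and 285 CPM in overexpressing replicates 1, 2 and 3. The groups did not overlap, and the fold within pairs of the same replicate number was 2.74, 2.13 and 2.24. Libraries held 18735853 to 22767455 counts, and 12593 genes passed the filter on low counts and were tested. Libraries of the same replicate number deviated from their group means together, and within each group replicate 3 was the most distant library, with a chi-square of 66.7 to 126 per degree of freedom against replicates 1 and 2, which differed from each other by 43.3 and 33.5. Of 9 gastric epithelium markers 9 were tested, and their summed level was 7120 to 8719 CPM over the 6 libraries. Of these 9, Sox2 fell (log2 fold change -0.48, adjusted p = 0.0144) and 0 rose, with 6 above a log2 fold change of 0. Cldn18 had the largest fitted change (0.93, adjusted p = 0.12), at 307 to 920 CPM in empty-vector and 702 to 1168 CPM in overexpressing libraries. The sum of 7 parietal cell markers was 167 to 312 CPM in the empty-vector libraries and 267 to 432 CPM in the overexpressing ones, and 0 of the 4 tested passed in either direction. Of the 2 subunits of the gastric proton pump that defines acid-secreting cells, Atp4a was at 2.87 to 5.41 CPM and Atp4b at 0 counts. The channel gene Kcnq1 was at 152 to 224 CPM, Slc26a9 at 8.22 to 75.6 CPM in empty-vector and 36.7 to 101.4 CPM in overexpressing libraries, and Aqp4 at 1.30 to 16.7 and 51.5 to 103 CPM, with no overlap (adjusted p = 0.174). The summed immune markers were at 20.3 to 53.9 CPM in empty-vector and 18.6 to 73.4 CPM in overexpressing libraries, mostly Cd68 at 17.3 to 72.8 CPM, which was highest in both libraries of replicate 3. The fibroblast sum was at most 1.87 CPM. The endothelial sum was at most 5.89 CPM in the empty-vector libraries and 14.3 CPM in the overexpressing ones, where Tek reached 8.95 CPM in replicate 3. In every library 4 of 8 fibroblast, 2 of 7 immune and 1 of 6 endothelial markers were at 0 counts. With the group as the only term, edgeR called 0 genes, with 419 at an unadjusted p under 0.05, and DESeq2 called 28 higher and 6 lower. With the replicate number as a block edgeR called 298 higher and 91 lower, and DESeq2 370 and 96. Throughout, "rose" and "fell" refer to the edgeR fit with the block at an adjusted p under 0.05 over all tested genes, and each such gene missed that threshold in edgeR without the block.

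Of the 10 phosphatase genes, 9 had enough counts to be tested, 1 rose and 0 fell with the block. Over all tested genes 2.37% were called higher and 0.723% lower in that fit, and without the block 0% were called in either direction, with 0 of the 9 members among them. At an unadjusted p under 0.05 without the block 1 of the 9 was higher and 0 lower, against 2.17% and 1.16% of all tested genes. The gene that rose was Dusp4. All 9 tested members had a fitted log2 fold change above 0 with the block, where 48.4% of all tested genes did. Without the block 7 of the 9 did, against 47.7%, since Dusp1 and Dusp5 stood at -0.01 and -0.03. Their median log2 fold change was 0.30, against -0.01 over all tested genes. In 7 of the 9 the overexpressing library was the higher one in 3 of 3 pairs, where 19.6% of all tested genes were, and in 0 was it the lower one in 3 of 3, where 19.2% were. At an unadjusted p under 0.05 with the block, 6 of the 9 were higher and 0 lower, against 9.64% and 7.21% of all tested genes. These are counts over a short list of related genes, which are not independent of each other, and no test of the list was made. The tallies restate the same 3 pairs of libraries, and the members were chosen with earlier results of these data known. With the block, Dusp1 (0.08, SE 0.10) and Dusp5 (0.01, SE 0.15) lay within 1 SE of 0. Fewer cells that express a gene and less RNA per cell cannot be told apart in such bulk libraries.

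**Figure D1:**
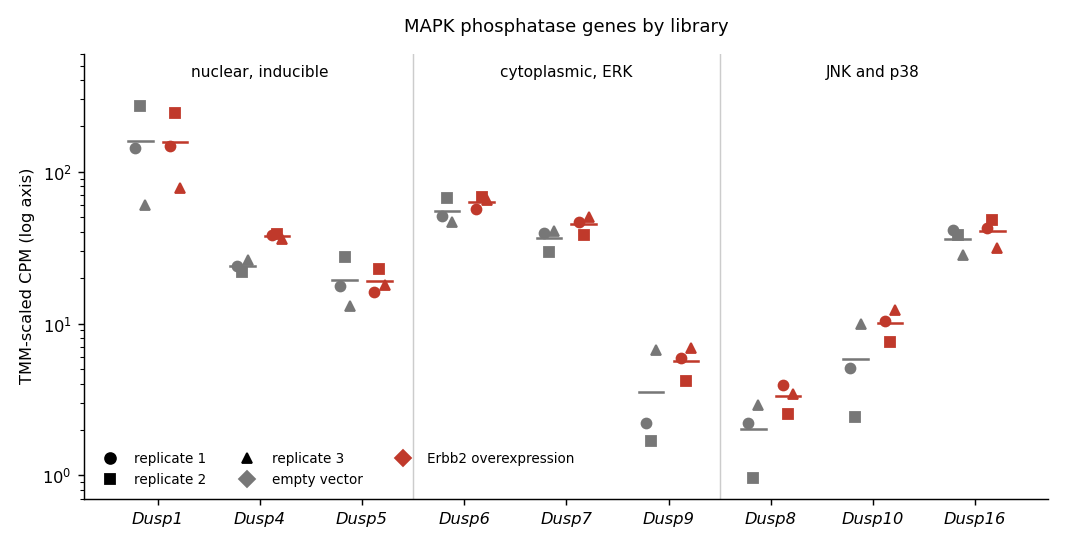
TMM-scaled CPM on a log axis for the 9 tested phosphatase genes, ordered by role, with 1 point per library (grey, empty vector; red, Erbb2 overexpression; shape, replicate number) and a line at each group mean. Dusp4 is the only one of the 9 whose groups do not overlap, and Dusp1 spreads over a wide range in both groups by replicate number.

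Dusp4 (ENSMUSG00000031530) encodes a nuclear phosphatase of ERK, JNK and p38 and is a known ERK target. Its level was 24.0, 21.8 and 26.1 CPM in empty-vector replicates 1, 2 and 3, and 38.6, 38.8 and 35.9 CPM in overexpressing replicates 1, 2 and 3. Every overexpressing library stood above every empty-vector library, which held for 4.27% of all tested genes and for 1 of the 9 tested members; 4.48% of all tested genes and 0 members lay wholly below. The means were 24.0 ± 2.16 and 37.8 ± 1.59 CPM (SD, n = 3). Dusp4 rose 1.57-fold, with a log2 fold change of 0.65 (SE 0.11, 95% confidence interval 0.42 to 0.89, adjusted p = 0.00809). Without the block the log2 fold change was 0.65 as well (SE 0.12, unadjusted p = 0.00087, adjusted p = 0.808), and DESeq2 without the block gave an adjusted p of 0.00534. The pairs gave folds of 1.61, 1.78 and 1.38, with counting errors of 0.08 to 0.09 on the log2 scale. Without replicate 2 the log2 fold change was 0.58 (SE 0.14) and the adjusted p 0.0754, which missed the threshold. The adjusted p was 0.0418 without replicate 1 and 8.82e-07 without replicate 3. Over all genes the calls with the block numbered 213, 145 and 1089 without replicate 1, 2 and 3, against 389 with all libraries.

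Markers of pit, neck, chief and enteroendocrine cells were measured in the same libraries. The summed level of 5 pit cell markers was 106 to 143 CPM in the empty-vector libraries and 207 to 352 CPM in the overexpressing ones, with no overlap, and 1 of the 4 tested, Psca, rose (adjusted p = 0.00557). The sum of 4 neck cell markers was 830 to 1270 CPM and 961 to 1880 CPM, which overlapped, and 3 of the 4, Tff2, Agr2 and Cftr, rose (adjusted p = 0.00167, 0.0181 and 0.0331). The chief cell sum was 69.5 to 139 CPM in empty-vector and 61.1 to 117 CPM in overexpressing libraries. Of 4 tested chief cell markers 0 passed in either direction and 0 stood above a log2 fold change of 0 (median -0.31). Of 4 tested enteroendocrine markers 0 passed and 1 stood above 0 (median -0.38), with a sum of at most 4.47 CPM. The part of these cell types in the difference in Dusp4 was not tested.

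Dusp1 (ENSMUSG00000024190) encodes an immediate early, stress-inducible nuclear phosphatase that acts on p38, JNK and ERK. It stood at 144, 271 and 60.3 CPM in empty-vector replicates 1, 2 and 3 and at 148, 244 and 77.8 CPM in overexpressing replicates 1, 2 and 3. The order of the replicate numbers was the same in both groups, with replicate 2 highest and replicate 3 lowest, and the groups overlapped over nearly their whole range. The highest library exceeded the lowest 4.49-fold among the empty-vector libraries and 3.13-fold among the overexpressing ones. The log2 fold change was -0.01 without the block (95% confidence interval -1.41 to 1.38) and 0.08 with it (-0.13 to 0.29, adjusted p = 0.745). The interval with the block thus left out a change of the size seen in Dusp4, and the interval without it did not. The pairs gave folds of 1.03, 0.901 and 1.29. The exons of Dusp1 overlap those of Ergic1 on the opposite strand in the annotation used here. Ergic1 was itself counted, at 3798 to 5467 counts per library. The strand setting of the counting is not given, so that reads in the overlap could have been lost from Dusp1 or could belong to Ergic1.

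Dusp5 (ENSMUSG00000034765) encodes a nuclear phosphatase that is specific for ERK. Its level was 17.7, 27.4 and 13.1 CPM in empty-vector replicates 1, 2 and 3 and 16.0, 22.8 and 18.1 CPM in overexpressing replicates 1, 2 and 3. The groups overlapped, and the overexpressing library was the higher one in 1 of 3 pairs, the third. The log2 fold change was 0.01 with the block (95% confidence interval -0.31 to 0.34, adjusted p = 0.981) and -0.03 without it. An antisense transcript overlaps the exons of Dusp5 in the annotation. It is not among the genes of the count tables, so its level is unknown and a share of the Dusp5 reads could belong to it. Dusp2 (ENSMUSG00000027368), a nuclear phosphatase best known from lymphocytes, was not tested. It had 7 counts, or 0.324 CPM, in empty-vector replicate 1 and 0 in the other 5 libraries, where a count of 0 allows up to 0.125 to 0.170 CPM (3 counts; counting error only).

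Promoter sequences were matched by symbol for 8 of the 10 genes in a RefSeq table of the assembly GRCm38.p6; Dusp4 and Dusp9 were not matched. Windows of 300 bases, from 250 before to 50 after the annotated start, were searched on both strands for 8 motifs. These were the cAMP response element TGACGTCA (CRE), the AP-1 site TGANTCA, an ETS site CCGGAAG, the CArG box bound by serum response factor, the E-box CACGTG, the GC box GGGCGG, the TATA box (its core TATAAA) and the NF-kappaB site. The 160 bases before the start are shown for Dusp1 and Dusp5, with 97.9% and 78.4% of their variation in log2 CPM between replicate numbers. The same bases are shown for Dusp8 and Dusp10, whose fitted differences were among the largest. They lie at chr17:26508473-26508632 (Dusp1, minus strand), chr19:53528985-53529144 (Dusp5, plus strand), chr7:142095285-142095444 (Dusp8, minus strand) and chr1:184034221-184034380 (Dusp10, plus strand). Each is written 5′ to 3′ on the gene's strand, and capitals mark matches to the CRE, AP-1, ETS or CArG motif.
Dusp1: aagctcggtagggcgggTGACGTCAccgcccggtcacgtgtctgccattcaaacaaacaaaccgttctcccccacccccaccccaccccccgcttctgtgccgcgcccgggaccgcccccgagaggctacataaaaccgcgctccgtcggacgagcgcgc
Dusp5: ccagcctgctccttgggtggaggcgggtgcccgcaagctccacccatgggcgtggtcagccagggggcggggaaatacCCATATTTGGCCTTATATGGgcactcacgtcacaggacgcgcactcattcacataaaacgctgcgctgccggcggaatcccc
Dusp8: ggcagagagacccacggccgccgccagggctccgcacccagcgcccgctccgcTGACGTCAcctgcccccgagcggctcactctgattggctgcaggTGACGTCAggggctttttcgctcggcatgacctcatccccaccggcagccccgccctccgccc
Dusp10: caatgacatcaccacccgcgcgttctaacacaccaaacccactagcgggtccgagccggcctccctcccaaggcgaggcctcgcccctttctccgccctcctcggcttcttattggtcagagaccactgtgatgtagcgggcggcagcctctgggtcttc
The capitals in Dusp1 are 1 CRE, from -143 to -136 relative to the start, and those in Dusp8 are 2, from -107 to -100 and from -63 to -56. In Dusp5 they are 2 adjoining CArG boxes, from -82 to -73 and from -72 to -63. A CRE stood in 1.79% of the 32851 windows in the table and a CArG box in 1.63%, and 2 or more stood in 0.0396% and 0.0183%. Dusp10 held none of the 4 motifs marked in capitals. Dusp16, with 84.4% of its variation between replicate numbers, is not shown, and its window held none of these 4 motifs either. No member window held an AP-1, ETS, TATA box or NF-kappaB match, against 7.81%, 8.86%, 13.6% and 8.46% of all windows. The E-box was found in Dusp1 and Dusp2 (7.15% of all windows), and the GC box in 7 of the 8 windows (35.7%). A match describes these letters and no binding was measured.

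Among the cytoplasmic ERK phosphatases 0 of 3 passed the threshold, and the overexpressing library was the higher one in 3 of 3 pairs for each. Dusp6 (ENSMUSG00000019960), the best known ERK-induced feedback phosphatase, was at 51.2, 67.1 and 46.8 CPM in empty-vector replicates 1, 2 and 3. In overexpressing replicates 1, 2 and 3 it was at 56.9, 68.4 and 65.3 CPM. The groups overlapped, because empty-vector replicate 2 was about as high as the overexpressing libraries. The pairs gave folds of 1.11, 1.02 and 1.39. The log2 fold change was 0.22 with the block (SE 0.10, 95% confidence interval 0.0035 to 0.44, unadjusted p = 0.0469, adjusted p = 0.288), and 0.10 without replicate 3.

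Dusp7 (ENSMUSG00000053716), a close relative of Dusp6, was at 39.4, 29.5 and 40.5 CPM in empty-vector replicates 1, 2 and 3 and at 46.4, 38.2 and 50.2 CPM in overexpressing replicates 1, 2 and 3. The pairs agreed closely for this gene, with folds of 1.18, 1.30 and 1.24, although the groups overlapped through replicate 2. Its log2 fold change with the block was 0.30 (SE 0.09, 95% confidence interval 0.10 to 0.51, unadjusted p = 0.0067, adjusted p = 0.115).

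Dusp9 (ENSMUSG00000031383) was low, with 30 to 155 counts in the empty-vector libraries and 74 to 166 in the overexpressing ones. It stood at 2.22, 1.69 and 6.67 CPM in empty-vector replicates 1, 2 and 3 and at 5.93, 4.19 and 6.91 CPM in overexpressing replicates 1, 2 and 3. Both libraries of replicate 3 were above the other 4. The difference lay in the first 2 pairs, with folds of 2.67 and 2.48, and the third pair gave 1.04, with a counting error of 0.16 on the log2 scale. The log2 fold change with the block was 0.71 (SE 0.28, adjusted p = 0.227). Without replicate 3 it was 1.38 (adjusted p = 0.000915), in a setting that called 1089 genes, against 389 with all libraries. Whether the pairs differed from each other was not tested.

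**Figure D2:**
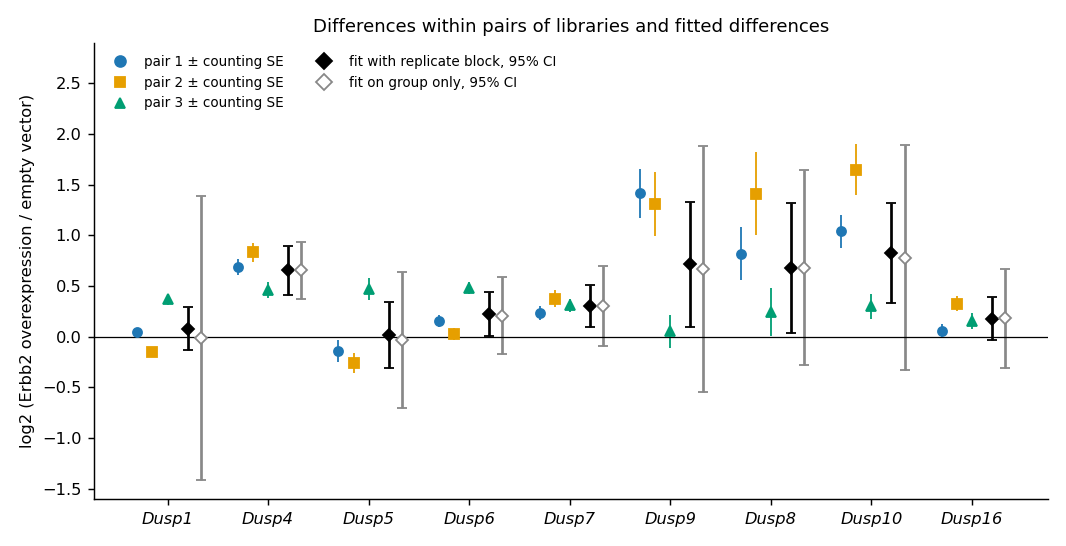
The log2 ratio of Erbb2 overexpression to empty vector for each of 3 pairs of libraries (colours and shapes, with bars of 1 counting standard error) and the fitted log2 fold changes with 95% confidence intervals, with the block (black) and without it (open). The intervals of Dusp4 lie above 0 in both fits, and pair 3 is the lowest of the 3 for Dusp4, Dusp8, Dusp9 and Dusp10 and the highest for Dusp1, Dusp5 and Dusp6.

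Among the JNK and p38 phosphatases 0 of 3 passed the threshold with the block. Dusp10 (ENSMUSG00000039384), which encodes a phosphatase of JNK and p38, had the largest fitted change of the 9 tested members. It was at 5.10, 2.42 and 9.98 CPM in empty-vector replicates 1, 2 and 3 and at 10.5, 7.59 and 12.3 CPM in overexpressing replicates 1, 2 and 3. The groups overlapped, since empty-vector replicate 3 was higher than overexpressing replicate 2. The pairs gave folds of 2.05, 3.13 and 1.23. The log2 fold change with the block was 0.82 (SE 0.23, 95% confidence interval 0.33 to 1.32, unadjusted p = 0.00338, adjusted p = 0.0788), and without the block 0.78 (SE 0.47). It passed the threshold with the block in DESeq2 (log2 fold change 0.96, adjusted p = 0.0252) and in edgeR without replicate 3 (1.27, adjusted p = 3.88e-05). The latter setting called 1089 genes, against 389 with all libraries. Without replicate 1 or 2 the adjusted p was 0.306 and 0.294.

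Dusp8 (ENSMUSG00000037887), best known from brain and heart, was the lowest of the 9 tested members, with 17 to 90 counts per library. It was at 2.22, 0.958 and 2.93 CPM in empty-vector replicates 1, 2 and 3 and at 3.93, 2.55 and 3.46 CPM in overexpressing replicates 1, 2 and 3. The folds of the pairs were 1.76, 2.66 and 1.18, with counting errors of 0.24 to 0.41 on the log2 scale, so that a part of the spread between pairs was within counting error. The log2 fold change was 0.68 with the block (SE 0.29, adjusted p = 0.266). A noncoding transcript that starts in the opposite direction overlaps the exons of Dusp8 in the annotation. It is not among the genes of the count tables, so its level is unknown and a share of the Dusp8 reads could belong to it.

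Dusp16 (ENSMUSG00000030203), a phosphatase of JNK and p38 that shuttles between nucleus and cytoplasm, was at 41.1, 38.2 and 28.1 CPM in empty-vector replicates 1, 2 and 3 and at 42.7, 47.9 and 31.2 CPM in overexpressing replicates 1, 2 and 3. Both libraries of replicate 3 were below the other 4. The pairs gave folds of 1.04, 1.25 and 1.11, and the log2 fold change was 0.18 with the block (SE 0.10, 95% confidence interval -0.04 to 0.39, adjusted p = 0.405).

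The members differed in how their variation was divided between the replicate number and the group. For Dusp4, 94.0% of the variation in log2 CPM across the 6 libraries lay between the groups and 0.943% between replicate numbers. For Dusp1 it was the reverse, with 97.9% between replicate numbers and 0.302% between groups. Dusp16 and Dusp5 were also mainly divided by number, at 84.4% and 78.4%. For Dusp6, Dusp7, Dusp8, Dusp9 and Dusp10 the number held 48.4% to 58.7% and the group 28.2% to 39.8%. The medians over all tested genes were 64.6% for the number and 10.4% for the group. There are 3 replicate numbers and 2 groups, so that the number takes a larger share than the group on average in noise alone. The shares are descriptive, and those of the group restate the differences given above.

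**Figure D3:**
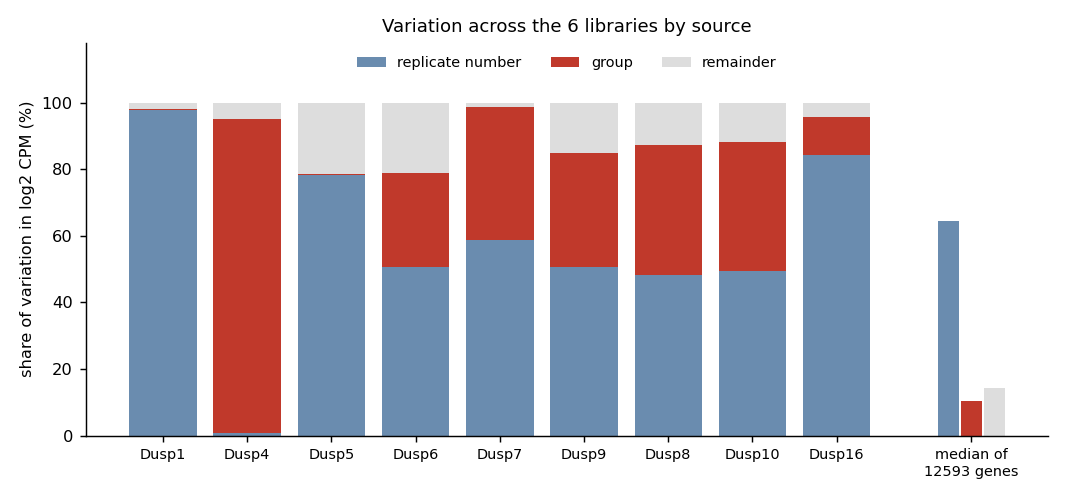
Share of the sum of squares of log2 CPM over 6 libraries that lies between replicate numbers, between groups, or in the remainder, stacked to 100% for each of the 9 tested genes, with the medians over 12593 tested genes as side-by-side bars at the right. Dusp4 is almost wholly divided by group and Dusp1 by replicate number.

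Most of the listed immediate early genes also differed by replicate number, though not all in the same direction. Of 13 listed immediate early genes, 10 had both libraries of replicate 3 below the other 4, where 20.1% of all tested genes did; among the 9 tested phosphatases these were Dusp1 and Dusp16. Of the same 13 genes 2, Fosl1 and Myc, had both libraries of replicate 3 above the other 4. For Ier3, 68.7% of the variation lay between groups and 31.2% between replicate numbers. The summed level of the 13 genes was 5266, 8944 and 2934 CPM in empty-vector replicates 1, 2 and 3. In overexpressing replicates 1, 2 and 3 it was 5468, 7769 and 3050 CPM, in the order of Dusp1. Of 8 listed genes of ERK transcriptional output, 6 had both libraries of replicate 3 above the other 4, where 18.8% of all tested genes did, and among the phosphatases this was Dusp9. The labels give nothing that sets replicate 3 apart, and what the replicate number stands for was not tested.

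Levels were compared between genes per kilobase of exons. In the empty-vector libraries the order was Dusp1 at 47.8 ± 32.0 CPM per kilobase (SD, n = 3), Dusp6 at 17.6 ± 3.42, Dusp7 at 10.9 ± 1.82, Dusp4 at 8.74 ± 0.787, Dusp5 at 7.84 ± 2.95 and Dusp16 at 4.59 ± 0.875. Next came Dusp10 at 1.92 ± 1.26, Dusp9 at 1.30 ± 1.004, Dusp8 at 0.418 ± 0.205 and Dusp2 at 0.0540 ± 0.0935 CPM per kilobase. Between neighbours in this order the ranges of the 3 empty-vector libraries overlapped for Dusp1 and Dusp6, Dusp7 and Dusp4, Dusp4 and Dusp5, and Dusp10 and Dusp9. Dusp1 was above Dusp6 in 6 of 6 libraries all the same, and Dusp16 above Dusp10 in 5 of 6, the exception being overexpressing replicate 3. In the overexpressing libraries Dusp4, at 13.8 ± 0.579 CPM per kilobase, stood at the third rank by its mean and Dusp7, at 13.4 ± 1.82, at the fourth. These ranges overlapped, and Dusp7 was the higher in replicate 3, so that the pair did not differ beyond its spread. The length of the longest transcript in place of the joined exons gave the same order in the empty-vector libraries, though Dusp16 moved to 7.01 CPM per kilobase. In the overexpressing libraries it put Dusp7, at 13.98, above Dusp4, at 13.8, and Dusp16, at 7.96, above Dusp5, at 7.67 CPM per kilobase.

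Summed over the 10 genes, the level was 95.9, 137 and 70.0 CPM per kilobase in empty-vector replicates 1, 2 and 3 and 109, 141 and 91.0 in overexpressing replicates 1, 2 and 3. Dusp1 alone made up 26.0% to 59.4% of the sum in the empty-vector libraries and 25.8% to 52.3% in the overexpressing ones, so that the sum followed the replicate number. Without Dusp1 the sum was 1.23, 1.21 and 1.30 times as high in the overexpressing library of pairs 1, 2 and 3. The 4 nuclear phosphatases together gave ratios of 1.10, 0.963 and 1.33, or 1.28, 1.23 and 1.38 without Dusp1. For the 3 cytoplasmic ERK phosphatases the ratios were 1.18, 1.13 and 1.30, and for the 3 JNK and p38 phosphatases 1.31, 1.55 and 1.17. Dusp4 went from 5.79% to 13.6% of the sum in the empty-vector libraries to 10.04% to 14.4% in the overexpressing ones, with the higher share in the overexpressing library of each pair. These shares overlapped between the groups, since the share of Dusp4 also depends on the level of Dusp1.

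**Figure D4:**
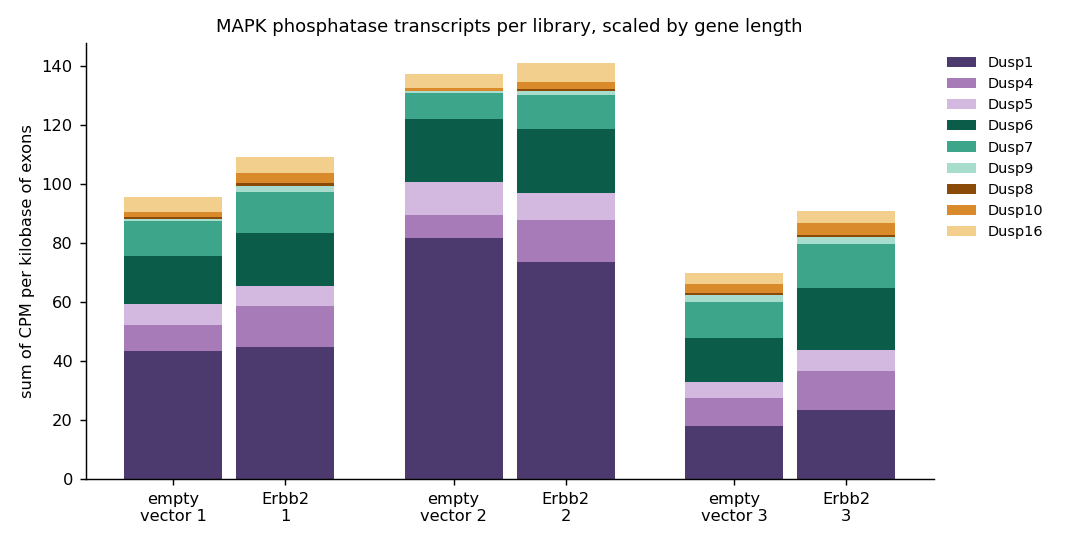
Stacked levels of the phosphatase genes in CPM per kilobase of exons for each library, in pairs of the same replicate number (purple, nuclear; green, cytoplasmic ERK; brown, JNK and p38; Dusp2 is left out at under 0.2). Dusp1 sets the height of the bars, from 70.0 in empty-vector replicate 3 to 141 in overexpressing replicate 2.

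The kinases that the phosphatases act on, and those upstream of them, were listed with their adaptors. Of 17 genes of the ERK cascade, 17 were tested and 0 passed the threshold in either direction, with a median log2 fold change of 0.05. The smallest p-values were those of Ksr1, a scaffold of the cascade (log2 fold change 0.47, adjusted p = 0.128, or 0.0118 without replicate 3), Map2k1, which encodes MEK1 (0.21, adjusted p = 0.243), and Hras (-0.22, adjusted p = 0.25). Of 17 genes of the JNK and p38 modules 16 were tested, 0 passed in either direction, and the median was -0.0034. The values nearest the threshold belonged to Mapk11 and Mapk12, which encode the p38 isoforms beta and gamma. Mapk11 was at 25.3 ± 13.1 CPM in empty-vector and 34.9 ± 10.8 CPM in overexpressing libraries (SD, n = 3; log2 fold change 0.52, adjusted p = 0.0535), and Mapk12 at 4.17 ± 1.58 and 7.05 ± 2.28 CPM (0.76, adjusted p = 0.0668). Mapk11 passed with the block under RLE scaling (adjusted p = 0.0481), under the filter on CPM (0.0499), with the earlier fit (0.0377), in DESeq2 (0.0237) and without replicate 3 (1.64e-05). Mapk12 passed without replicate 3 (0.0309). Leaving out replicate 3 raised the calls over all genes from 389 to 1089. Map3k1, the next in order, had a log2 fold change of 0.15.

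Of the 8 genes of ERK transcriptional output, a list that leaves out the phosphatases, 2 rose and 0 fell, with a median log2 fold change of 0.47. Of these 8, 7 stood above 0, and Spry2 stood at -0.08 (adjusted p = 0.796). Spry4 had the largest value (1.03, adjusted p = 0.185) but was low, at 0.394 to 3.50 CPM. Etv4, Etv5 and Phlda1 stood at 0.55, 0.45 and 0.17 and did not pass. Epha4, an ephrin receptor, was at 20.8, 16.4 and 28.1 CPM in empty-vector replicates 1, 2 and 3 and at 31.4, 31.6 and 42.3 CPM in overexpressing replicates 1, 2 and 3 (log2 fold change 0.70, adjusted p = 0.00677). Ccnd1, the cyclin D1 gene, rose by 0.49 (adjusted p = 0.0135), and Epha2 stood at 0.30 (adjusted p = 0.0554). Epha2 passed with the block under upper-quartile scaling (0.0499), in DESeq2 (0.0254), with the earlier fit (0.0498) and without replicate 3 (0.0427). Over all genes 1089 were called without replicate 3 and 145 without replicate 2, against 389 with all libraries. Epha4 and Ccnd1 missed the threshold without replicate 2 (adjusted p = 0.0605 and 0.12), as Dusp4 did, although the log2 fold change of Ccnd1 stayed at 0.49. Of the 13 immediate early genes 2 rose and 0 fell, with a median of 0.01. These were Ier3 (0.76, adjusted p = 0.00125) and Myc (0.42, adjusted p = 0.0124, or 0.127 without replicate 2); Jun stood at -0.28 (adjusted p = 0.0954, or 0.0428 in DESeq2). Dusp4, Epha4, Ccnd1, Ier3 and Myc were already known as changed in these libraries when the lists were drawn up.

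Other phosphatases were listed for comparison. Of 12 atypical dual-specificity phosphatases, which lack the MAPK-binding domain, 10 were tested and 0 passed in either direction, with a median log2 fold change of 0.05; Dusp18, with the smallest p, stood at 0.23 (adjusted p = 0.303), Dusp22 at -0.60 (0.482) and Styx at -0.30 (0.52). Dusp15 and Dusp26 were at 0 counts in every library. Of 9 other phosphatases that act on MAPKs 7 were tested, 1 rose and 0 fell, and the median was -0.05. Ptprr, a tyrosine phosphatase that binds ERK, was at 3.20, 2.25 and 10.5 CPM in empty-vector replicates 1, 2 and 3 and at 11.3, 11.6 and 17.6 CPM in overexpressing replicates 1, 2 and 3. Its groups did not overlap, and it rose 2.65-fold (log2 fold change 1.41, SE 0.27, adjusted p = 0.0279). Without replicate 1 its adjusted p was 0.194, and without replicate 3 its log2 fold change was 2.06. Ppm1b and Ppm1a, which encode metal-dependent phosphatases, stood at -0.18 and -0.07. The related tyrosine phosphatase genes Ptpn5 and Ptpn7 were at 0 counts in every library.

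**Figure D5:**
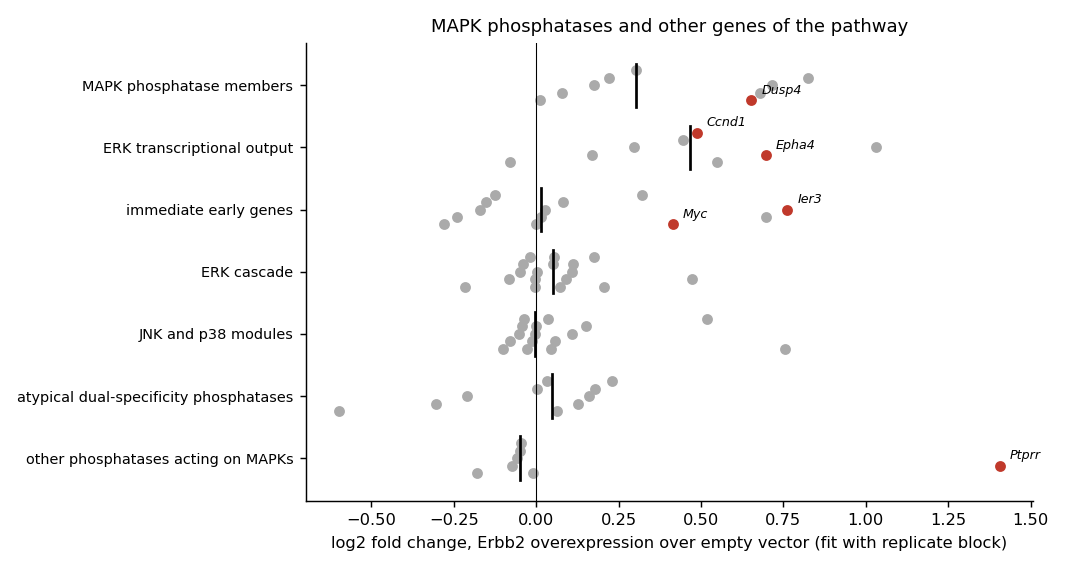
Log2 fold changes of Erbb2 overexpression over empty vector in the fit with the replicate block, with 1 point per tested gene of each list (red and named, adjusted p under 0.05; grey, not) and a black line at the list's median. The phosphatase list has its median at 0.30 and the ERK output list at 0.47, and those of the kinase lists and of the other phosphatase lists lie between -0.05 and 0.05; the lists were drawn up with the changes of Dusp4, Epha4, Ccnd1, Ier3 and Myc known, so that their medians are a description.

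The genes whose pattern over the 6 libraries was nearest to that of Dusp4 were found by the root mean square difference of log2 CPM, each gene centred on its own mean, among 8988 genes of at least 10 CPM. They were Unc5b, a netrin receptor (difference 0.102), Ksr1 (0.103), Tep1 (0.106), the semaphorin Sema3c (0.108) and Stom (0.112). The median difference over these 8988 genes was 0.39. Among the phosphatases Dusp7 was nearest to Dusp4, at 0.243, and Dusp1 farthest, at 0.878. Since Dusp4 is divided by group, genes near it are as well: Sema3c was at 132 to 151 CPM in the empty-vector libraries and 195 to 218 CPM in the overexpressing ones.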

How the data were processed

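Polyadenylated RNA of 6 libraries was sequenced. The submitters' processing notes name STAR, featureCounts and GRCm39; their versions, the annotation and whether counting used strand were not given in the sources. Each deposited file holds 1 library's raw counts by Ensembl gene ID, per the file headers. Symbols matched 25424 of 25528 IDs; the 104 others held at most 0.219% of counts and stayed in the tests. Exon lengths and overlaps came from GENCODE M21, of an earlier assembly, and promoters from RefSeq.

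The count tests used edgeR 4.0.16 (R 4.3.3), with filterByExpr (minimum count 10), TMM scaling and the two-sided robust quasi-likelihood F test, with Benjamini-Hochberg adjustment over 12593 genes and a threshold of 0.05. A standard error is the log2 fold change over the root of F. CPM use the TMM-scaled library size. The design has the group as its single term; the replicate block is an alternative, printed because same-numbered libraries deviated together (correlations 0.333, 0.660 and 0.707 over genes). The labels give only the numbers, so this pairing rests on the same counts. Log2 CPM for variation and likeness used a prior count of 2. Scripts were tested on simulated data. Replicates differed beyond sampling noise (chi-square of 33.5 to 126 per degree of freedom).

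Alternatives were other scalings, DESeq2 1.42.0, limma 3.58.1 (voom), other filters, removal of mitochondrial genes and Erbb2, the earlier form of the fit, left-out libraries or pairs, and the longest transcript. Members and lists were chosen with earlier results of these data known. From each pathway list every gene past the threshold with the block was named, filled up to 3 genes in order of p. The remaining ERK output genes and the marker genes were named after their values were seen. Promoters and motifs were chosen after values were seen.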

Additional observations from a re-analysis of the deposited data

How the results depend on the processing

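Without the block, 0 genes were called higher and 0 lower in edgeR and in limma voom; DESeq2 called 28 and 6, with 1 phosphatase, Dusp4 (adjusted p = 0.00534). With the replicate block edgeR called 298 higher and 91 lower, with 1 phosphatase. Genes called with the block numbered 312 and 83 under RLE scaling, 287 and 93 under upper-quartile scaling, 288 and 88 in limma voom, 272 and 73 with no filter, 306 and 82 with at least 1 CPM in 3 libraries, 298 and 91 without mitochondrial genes and Erbb2, and 312 and 93 with the earlier fit, each with 1 phosphatase; DESeq2 called 370 and 96, with 2 phosphatases. Leaving out 1 library without the block gave 0 to 1 higher, 0 lower and 0 phosphatases. With the block, leaving out replicate 1, 2 or 3 gave 173, 121 and 769 higher, 40, 24 and 320 lower, and 1, 0 and 3 phosphatases.

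Dusp1 and Dusp5 changed sign, at log2 fold changes of -0.01 and -0.03 without the block. With the replicate block they were 0.0789 and 0.0123 (RLE 0.0839 and 0.0175, upper quartile 0.0790 and 0.0122, DESeq2 0.0882 and 0.0232, voom 0.0700 and 0.0033, no filter 0.0768 and 0.0113, CPM filter 0.0832 and 0.0164, mitochondrial genes and Erbb2 removed 0.0784 and 0.0120, earlier fit 0.0816 and 0.0167, without replicate 1 0.103 and 0.0931), and in voom without it 0.0883 and 0.0361. With libraries left out Dusp1 ran from -0.49 to 0.62 and Dusp5 from -0.25 to 0.30 without the block, and from -0.05 to 0.21 and -0.20 to 0.17 with it. Without the block, Myc ran from -0.10 to 0.90 and Jun from -0.71 to 0.20; with it, Ppm1a ran from -0.17 to 0.0103. The cause was not tested. The other 7 tested phosphatases kept their sign in all 27 settings. Low counts limit Dusp8 and Dusp9.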
